A study of Mus musculus with 36 samples.

Results

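The interferon-stimulated genes are the transcripts that a cell makes in response to interferon. The set described here holds 49 mouse genes of the type I and type II responses, taken by their symbols from a count table of 55421 genes. All 49 were matched to an Ensembl gene identifier, and all 49 passed the filter on low counts, which kept 19477 genes. The rule that lists the genes uses no measured value, although the set was proposed with earlier results of these data known.

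The study measured RNA in hippocampal slices of mice aged 16 months. WT mice were C57BL/6, and T41B mice carried the Thy1-hAPP Lond/Swe transgene of Line 41, a mutant human amyloid precursor protein under the Thy1 promoter, which is active mainly in neurons. Mice received vehicle or BD10-2, a TrkB and TrkC partial agonist, by oral gavage for 3 months from the age of 13 months. Slices from the right hippocampus then received 3 rounds of theta-burst stimulation, each round made of 10 bursts given 200 ms apart, with 4 stimuli in a burst at 100 Hz, or a sham procedure of equal duration, and were frozen at once.

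In 4 cases 2 libraries shared a mouse and a procedure, and these were summed, which gave 32 samples from 18 mice. The labels do not say whether such a pair came from 1 slice or 2. By the chi-square per degree of freedom of their counts, the sham pair of Mouse1565 differed by 28.9, more than pairs of different mice in its group (8.23 to 26.6), and the sham pair of Mouse1557 by 21.8, within that range (10.6 to 30.7). The stimulated pair of Mouse1592 lay at the low end of the range of its group (12.5, against 12.5 to 69.4), and that of Mouse1586 below it (7.44, against 11.6 to 20.5). Each of the 2 procedures had 4 WT vehicle mice, 4 T41B vehicle mice, 3 WT BD10-2 mice and 5 T41B BD10-2 mice. 14 mice gave both a sham and a stimulated slice. Both procedures were carried out on slices cut from the brain, so no group shows the intact hippocampus. Expression levels are CPM, counts scaled to the sample's total over the genes kept by the filter, with that total adjusted by a TMM factor per sample. They are not scaled by gene length, so levels are compared between samples and not between genes.

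Interferons are secreted proteins that bind receptors on the cell surface and activate the JAK kinases. Type I interferons drive the assembly of the complex ISGF3, which holds STAT2 and IRF9 and binds the interferon-stimulated response element (ISRE), whereas interferon gamma acts through the gamma-activated site (GAS). The genes they induce sense viral nucleic acid, block viral replication, attack vacuoles that hold microbes, and restrain the signal itself. In the brain, microglia, the resident macrophages, are among the cells that both make and answer type I interferon.

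The promoters of the genes were examined because nearly all of the set moved together. RefSeq promoter windows of 300 bases on GRCm38.p6, from 250 bases before to 50 bases after the annotated start, were on hand for 37 of the 49 genes. Those without a window were Mx1, Mx2, Oas2, Usp18, Dhx58, Parp9, Parp14, Ifi27, Iigp1, Zbp1, Rtp4 and Ifi204. The core of the ISRE, searched on both strands as GAAA followed by any 2 bases and a second GAAA, was present in 23 of the 37 genes (62.2%), against 3.99% of the 27025 genes in the RefSeq table. The core of the GAS, searched as TTCNNNGAA, was present in 12 of the 37 (32.4%), against 9.55% of all genes. 8 genes held both and 10 held neither, among them Irf7, Oasl1, Oasl2 and Lgals3bp. A match is a match of letters and not evidence of a bound factor.

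10 stretches before the start are shown because their genes recur in the results: 2 transcription factors (Stat2, Irf1), 4 strongly raised genes (Isg15, Ifit1, Ifit3, Rsad2), 2 GTPase genes (Gbp2, Igtp), a gene called with stimulation in 1 of 4 comparisons (Bst2) and the gene with a lower level in sham T41B slices (Ifi203). Each is written 5′ to 3′ on the strand of its gene, with ISRE and GAS matches in capitals; neighbouring matches can overlap, and in Bst2 the GAS match runs into an ISRE match. The matches lay between 24 and 222 bases before the annotated start.
Stat2 (chr10:128270248-128270320, plus strand): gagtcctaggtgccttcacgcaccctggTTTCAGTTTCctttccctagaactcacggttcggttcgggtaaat
Irf1 (chr11:53769889-53769967, plus strand): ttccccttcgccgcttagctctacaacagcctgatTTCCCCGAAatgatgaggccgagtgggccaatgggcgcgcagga
Isg15 (chr4:156200840-156200931, minus strand): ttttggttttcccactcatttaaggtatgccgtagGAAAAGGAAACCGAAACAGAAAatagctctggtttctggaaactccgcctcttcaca
Ifit1 (chr19:34640750-34640848, plus strand): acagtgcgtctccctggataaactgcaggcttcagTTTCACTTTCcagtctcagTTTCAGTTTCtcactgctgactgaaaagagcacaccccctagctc
Ifit3 (chr19:34583338-34583451, plus strand): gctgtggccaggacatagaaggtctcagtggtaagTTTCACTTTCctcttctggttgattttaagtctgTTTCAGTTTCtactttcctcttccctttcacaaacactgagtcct
Rsad2 (chr12:26456528-26456607, minus strand): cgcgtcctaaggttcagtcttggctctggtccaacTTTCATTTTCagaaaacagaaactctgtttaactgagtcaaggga
Bst2 (chr8:71537552-71537643, minus strand): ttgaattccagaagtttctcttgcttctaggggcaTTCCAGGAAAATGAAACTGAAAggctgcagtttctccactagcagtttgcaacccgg
Gbp2 (chr3:142620569-142620648, plus strand): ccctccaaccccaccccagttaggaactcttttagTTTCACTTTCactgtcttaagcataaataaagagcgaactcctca
Igtp (chr11:58199476-58199555, plus strand): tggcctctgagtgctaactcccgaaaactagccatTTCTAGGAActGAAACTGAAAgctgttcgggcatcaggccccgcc
Ifi203 (chr1:173942493-173942562, minus strand): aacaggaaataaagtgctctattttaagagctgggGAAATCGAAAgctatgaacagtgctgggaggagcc
Irf1 carried a GAS match and no ISRE match, Isg15 carried 3 overlapping ISRE matches, and Igtp and Bst2 carried both kinds.

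The 36 libraries held 11597555 to 28125842 expected counts (median 18082415), with 2.0% to 5.4% of them on mitochondrial genes. Thy1, whose promoter drives the transgene, lay at 253 to 403 CPM in the 16 WT libraries and at 918 to 2500 CPM in the 20 T41B libraries, so every library matched its genotype label by this measure. 2 samples stood apart in the module score, which averages log2(CPM + 1) across the 49 genes. The stimulated T41B BD10-2 slice of Mouse1592 had a score of 4.29, against 5.99 to 6.58 in the other 4 slices of its group, and its 2 libraries, summed here, gave 3.38 and 4.75 and differed in Thy1 (918 and 1940 CPM). The sham T41B vehicle slice of Mouse1551 had a score of 3.71, against 2.72 to 2.81 in the other 3. The counts of genes of the set called for stimulation or genotype, or separated between groups, are given with and without them.

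Theta-burst stimulation raised nearly the whole set in every genotype and treatment. The module score of WT vehicle slices was 1.92 ± 0.21 (SD, n = 4) in sham and 4.08 ± 0.26 (SD, n = 4) in stimulated slices, and that of T41B vehicle slices was 3.01 ± 0.47 (SD, n = 4) and 5.70 ± 0.42 (SD, n = 4). With BD10-2, WT slices went from 1.87 ± 0.07 to 3.92 ± 0.16 (SD, n = 3 each) and T41B slices from 2.72 ± 0.13 to 5.81 ± 0.88 (SD, n = 5 each). In bulk RNA a difference in the number of cells of a type and a difference in RNA per cell cannot be told apart. Every stimulated slice, that of Mouse1592 included, scored above every sham slice of the same genotype and treatment.

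**Figure D1:**
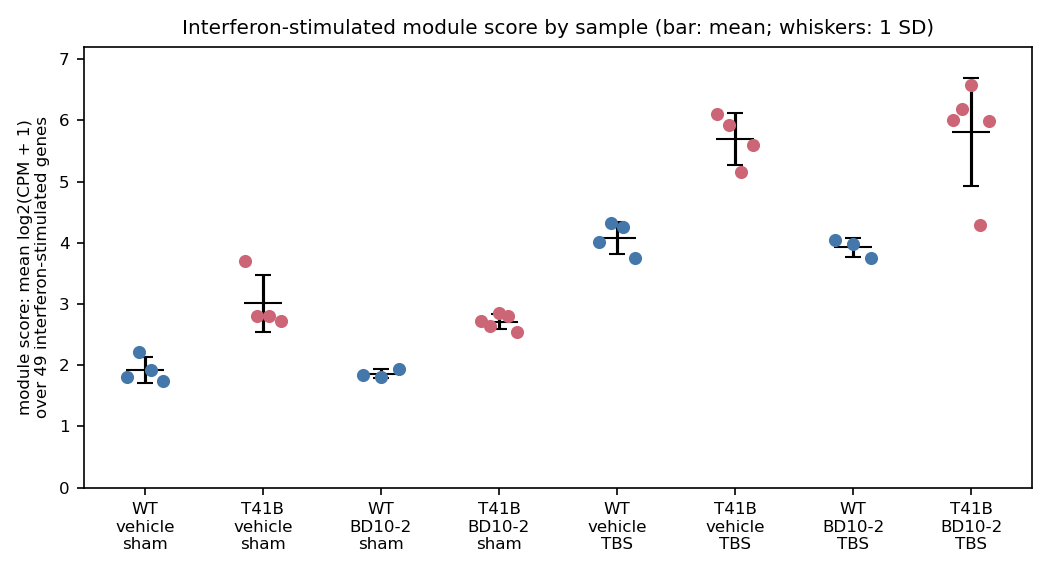
Module score, log2(CPM + 1) averaged across the 49 interferon-stimulated genes, for each sample in the 8 groups (sham left, theta-burst stimulation, TBS, right; WT blue, T41B red); bars are means and whiskers 1 SD. Stimulated slices lie above sham slices and T41B above WT in each pair of groups; the low point at 4.29 in the last group is Mouse1592 and the high point at 3.71 among sham T41B vehicle slices is Mouse1551.

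By edgeR's quasi-likelihood test at an adjusted p under 0.05, 45 of the 49 genes rose and 0 fell in WT vehicle slices, where 8.21% of all genes tested rose and 4.1% fell. The counts were 43 risen and 0 fallen in WT BD10-2 slices (background 6.29% and 2.58%), 45 and 0 in T41B vehicle slices (11.7% and 9.82%), and 48 and 0 in T41B BD10-2 slices (13.3% and 9.52%). The median log2 fold change of the set was 2.39, 2.48, 2.67 and 3.38 in these 4 comparisons, whereas the median of all genes lay between -0.05 and -0.01. All stimulated samples lay above all sham samples for 46, 45, 44 and 44 genes, where such separation was seen for 9.33%, 17.7%, 11.7% and 9.36% of all genes. Without the 2 samples that stood apart, 47, 44, 47 and 48 genes rose (8.69%, 6.44%, 10.9% and 14.5% of all genes), and separation was seen for 46, 45, 46 and 48 (9.33%, 17.7%, 13.6% and 12.7%). 43 genes rose in all 4 comparisons (4.46% of all genes), and 44, the 43 among them, without those samples (4.84%). In the 14 mice with both slices, 44 genes were higher in the stimulated slice of every mouse, as were 9.08% of all genes; the other 5 were Oas2, Oas3, Bst2, Ifi27 and Lgals3bp.

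**Figure D2:**
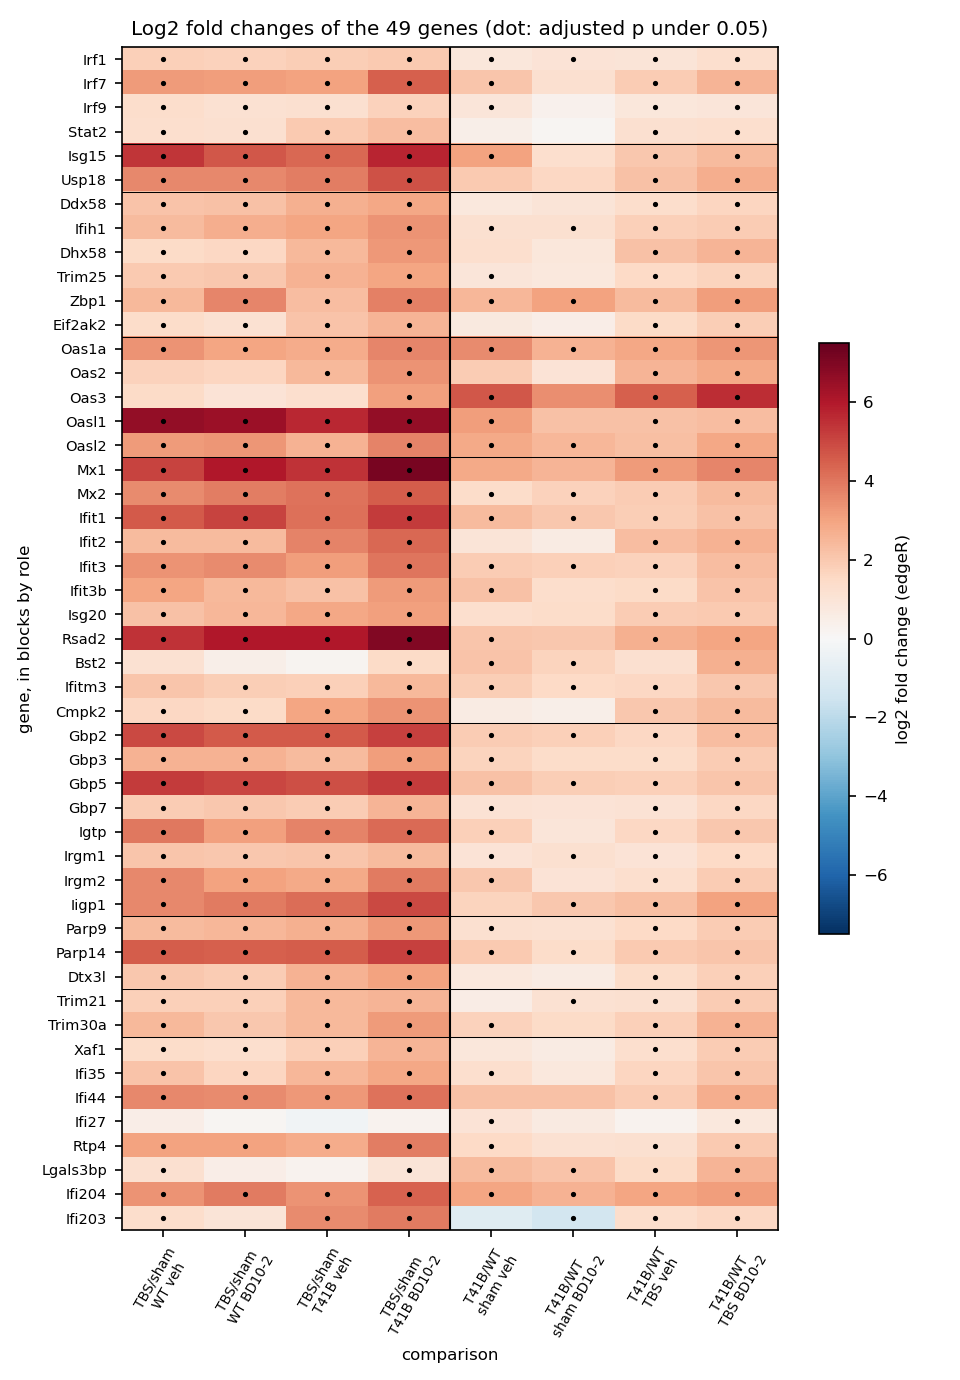
Log2 fold changes from edgeR for the 49 genes (rows, in blocks by role) in the 4 comparisons of stimulated with sham slices and the 4 comparisons of T41B with WT slices (columns); a dot marks an adjusted p under 0.05. Oasl1, Mx1 and Rsad2 show the deepest colour for stimulation, Ifi27 has no dot for stimulation, and Ifi203 is blue in sham T41B slices.

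Among the transcription factors, all 4 rose with stimulation in all 4 comparisons. Irf7, the factor that amplifies type I interferon production, was measured at 0.576, 1.42, 1.91 and 1.95 CPM in sham and 10.2, 11.7, 14.3 and 17.5 CPM in stimulated WT vehicle slices. In T41B vehicle slices it was at 2.44, 3.61, 4.46 and 14.7 CPM in sham and 27.6, 43.7, 63.7 and 69.8 CPM in stimulated slices. Sham and stimulated values did not overlap in either genotype. The log2 fold change was 3.17 ± 0.54 (SE, adjusted p by edgeR = 0.000114) in WT and 3.00 ± 0.45 (SE, adjusted p by edgeR = 1.21e-05) in T41B.

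With BD10-2, Irf7 was at 0.835, 1.1 and 1.95 CPM in sham and 10.1, 10.3 and 13.3 CPM in stimulated WT slices, and at 2.33, 2.72, 2.8, 3.27 and 3.44 CPM and 14.9, 60.8, 66.4, 69.1 and 121 CPM in T41B slices. Here too the groups did not overlap; the lowest stimulated T41B value belonged to Mouse1592. Stat2, the subunit that gives ISGF3 its activating domain, was at 18.7, 19.8, 21.3 and 22.7 CPM in sham and 34.5, 46.2, 55.2 and 58.8 CPM in stimulated WT vehicle slices, a log2 fold change of 1.24 ± 0.22 (SE, adjusted p by edgeR = 0.000204). In T41B vehicle slices Stat2 was at 24.6, 25.1, 25.7 and 36.2 CPM and 80.2, 110.0, 124 and 128 CPM, a log2 fold change of 1.99 ± 0.22 (SE, adjusted p by edgeR = 8.91e-08). Irf1, a factor induced through GAS elements, rose by log2 fold changes of 1.74 to 1.98, and Irf9, the DNA-binding subunit of ISGF3, by 1.13 to 1.74.

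Both feedback genes rose in all 4 comparisons. Isg15, a ubiquitin-like protein that is joined to other proteins during the response, was measured at 0, 0.216, 0.566 and 0.577 CPM in sham and 10.9, 13.7, 13.8 and 19.3 CPM in stimulated WT vehicle slices, and its log2 fold change was 5.36 ± 0.59 (SE, adjusted p by edgeR = 1.26e-07). In T41B vehicle slices Isg15 was at 0.938, 1.78, 3.3 and 5.18 CPM and 39.4, 50.1, 67.7 and 73.4 CPM, with a log2 fold change of 4.33 ± 0.42 (SE, adjusted p by edgeR = 9.46e-09). Each stimulated value was above each sham value of its genotype. Usp18, the protease that removes ISG15 and damps the receptor, was at 0.36, 0.462, 0.534 and 1.07 CPM in sham and 5.1, 6.23, 7.83 and 10.0 CPM in stimulated WT vehicle slices. Its log2 fold changes were 3.58, 3.61, 3.81 and 4.78 in WT vehicle, WT BD10-2, T41B vehicle and T41B BD10-2 slices.

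All 6 genes of nucleic acid sensing rose in all 4 comparisons, with median log2 fold changes of 2.06, 2.14, 2.51 and 3.11 for WT vehicle, WT BD10-2, T41B vehicle and T41B BD10-2 slices. Ifih1, which encodes the long double-stranded RNA sensor MDA5, was at 6.48, 6.58, 7.47 and 10.6 CPM in sham and 34.8, 39.4, 42 and 44.1 CPM in stimulated WT vehicle slices. In T41B vehicle slices it was at 14.1, 14.8, 16 and 26.5 CPM and 95.2, 132, 139 and 190.0 CPM. The groups did not overlap, and the log2 fold changes were 2.36 ± 0.31 (SE, adjusted p by edgeR = 2.81e-06) in WT and 2.96 ± 0.30 (SE, adjusted p by edgeR = 2.02e-08) in T41B. Ddx58, which encodes the RNA sensor RIG-I, rose by 2.14 to 2.92 on the log2 scale, and Eif2ak2, the RNA-activated kinase PKR that halts translation, by 1.17 to 2.54. Zbp1, a sensor of left-handed nucleic acid that can trigger cell death, rose by 2.32 to 3.76 from sham levels of at most 0.404 CPM in WT slices.

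The OAS family, whose founding members make the second messenger that activates RNase L, was divided. Oasl1 rose by 5.67 to 6.58 on the log2 scale, the highest value of the set in both WT comparisons, and Oasl2 and Oas1a rose in all 4 as well. Oasl2 was at 1.08, 1.42, 1.73 and 3.71 CPM in sham and 12.2, 13.4, 18.9 and 29.3 CPM in stimulated WT vehicle slices, and at 8.44, 8.45, 8.61 and 31.8 CPM and 56.7, 76.5, 93.5 and 130.0 CPM in T41B vehicle slices. Its sham and stimulated groups did not overlap, and the sham value of 31.8 CPM came from Mouse1551. Oas2 rose in both T41B comparisons, with log2 fold changes of 2.41 and 3.36, and was not called in WT. Oas3 was called higher in T41B BD10-2 slices, from 0.412, 0.415, 0.52, 0.747 and 0.847 CPM in sham to 0.768, 3.12, 3.96, 7.27 and 10.8 CPM in stimulated slices, where the groups overlapped through Mouse1592. It was not called in T41B vehicle slices, at 1.26 ± 0.60 (SE, adjusted p by edgeR = 0.136) on the log2 scale, and the test of whether these responses differ did not call it. In WT it stayed at or under 0.278 CPM in every sample.

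Of the 11 antiviral effectors, all but Bst2 rose in all 4 comparisons. Rsad2, which encodes viperin, an enzyme that makes a chain-terminating nucleotide, was at 1.27, 1.37, 1.42 and 5.03 CPM in sham and 65.9, 94.1, 102 and 128 CPM in stimulated WT vehicle slices. In T41B vehicle slices Rsad2 was at 6.19, 8.19, 11.4 and 13 CPM and 310.0, 598, 708 and 859 CPM. The lowest stimulated value was above the highest sham value in each, and the log2 fold changes were 5.42 ± 0.58 (SE, adjusted p by edgeR = 7.21e-08) in WT and 6.00 ± 0.54 (SE, adjusted p by edgeR = 2.45e-09) in T41B. With BD10-2, Rsad2 was at 1.19, 1.41 and 1.59 CPM and 77.7, 90.0 and 107 CPM in WT and at 4.02, 4.9, 5.44, 6.18 and 8.45 CPM and 82.6, 533, 675, 895 and 1320.0 CPM in T41B slices. Its stimulated T41B values again had Mouse1592 at the bottom, still above every sham slice.

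Ifit3, a cofactor of the IFIT proteins that bind viral RNA, was at 5.26, 5.69, 7.68 and 11.5 CPM in sham and 61.6, 67.9, 83.5 and 100.0 CPM in stimulated WT vehicle slices, and at 21.4, 21.9, 22.9 and 48.9 CPM and 158, 225, 305 and 333 CPM in T41B vehicle slices. The groups did not overlap, and the log2 fold changes were 3.38 and 3.14. Ifit1 rose by 4.12 to 5.23 and Ifit2 by 2.36 to 4.34. Mx1, a gene of the Mx family of GTPases, rose by 5.07 to 7.12 from sham WT totals of 9 counts over 4 vehicle and 6 counts over 3 BD10-2 samples, so its fitted fold in WT rests on few counts. Ifitm3, a membrane protein that blocks viral entry, rose by 1.79 to 2.41, and Cmpk2, a nucleotide kinase encoded beside Rsad2, by 1.45 to 3.39. Isg20, an exonuclease that degrades viral RNA, rose by 2.23 to 3.06.

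Bst2 was the effector that moved least. This gene encodes tetherin, which holds budding virions on the cell surface. It was at 1.42, 1.51, 1.67 and 2.26 CPM in sham and 2.15, 3.28, 3.36 and 6.07 CPM in stimulated WT vehicle slices, and at 3.5, 4.46, 6.22 and 15.9 CPM and 5.21, 7.68, 11 and 11.2 CPM in T41B vehicle slices. The values overlapped in both, and neither was called; the log2 fold changes were 1.12 ± 0.45 (SE, adjusted p by edgeR = 0.105) and 0.21 ± 0.39 (SE, adjusted p by edgeR = 0.748). Only T41B BD10-2 slices gave a call, with a log2 fold change of 1.42 ± 0.35 (SE, adjusted p by edgeR = 0.00362).

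All 8 GTPase genes, whose products attack microbe-bearing vacuoles, rose in all 4 comparisons. Gbp2 was at 2.13, 2.31, 2.45 and 4.02 CPM in sham and 60.2, 80.9, 81.2 and 111 CPM in stimulated WT vehicle slices, and at 6.75, 8.61, 9.04 and 16.9 CPM and 129, 195, 327 and 345 CPM in T41B vehicle slices. Stimulated values were far from sham values, with log2 fold changes of 4.93 ± 0.44 (SE, adjusted p by edgeR = 4.26e-09) and 4.58 ± 0.40 (SE, adjusted p by edgeR = 1.55e-09). Gbp5, which promotes inflammasome assembly, had the smallest edgeR adjusted p of the set in 3 of the comparisons, with log2 fold changes of 5.23 ± 0.43 (SE, adjusted p by edgeR = 1.06e-09) in WT vehicle, 4.98 in WT BD10-2 and 4.82 in T41B vehicle slices. Igtp rose by 3.10 to 4.25 and Irgm1, a regulator of the family, by 2.05 to 2.35. Iigp1 rose by 3.59 to 4.92.

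Parp9, Parp14 and Dtx3l, which modify proteins with ADP-ribose or ubiquitin, rose in all 4 comparisons, and Parp14 did so by 4.45 to 5.12 on the log2 scale. Trim21, a cytosolic antibody receptor, and Trim30a rose in all 4 as well, by 1.78 to 2.52 and 2.00 to 3.17. Of the 8 remaining genes, Xaf1, Ifi35, Ifi44, Rtp4 and Ifi204 rose in all 4; Ifi204, a DNA-binding protein of the PYHIN family, rose by 3.36 to 4.42. The Ifit, Oas, Gbp, Irgm, Trim30 and Ifi200 genes lie in families of similar copies, and the estimated counts divide shared reads among copies, so values of single members are uncertain to that extent.

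**Figure D3:**
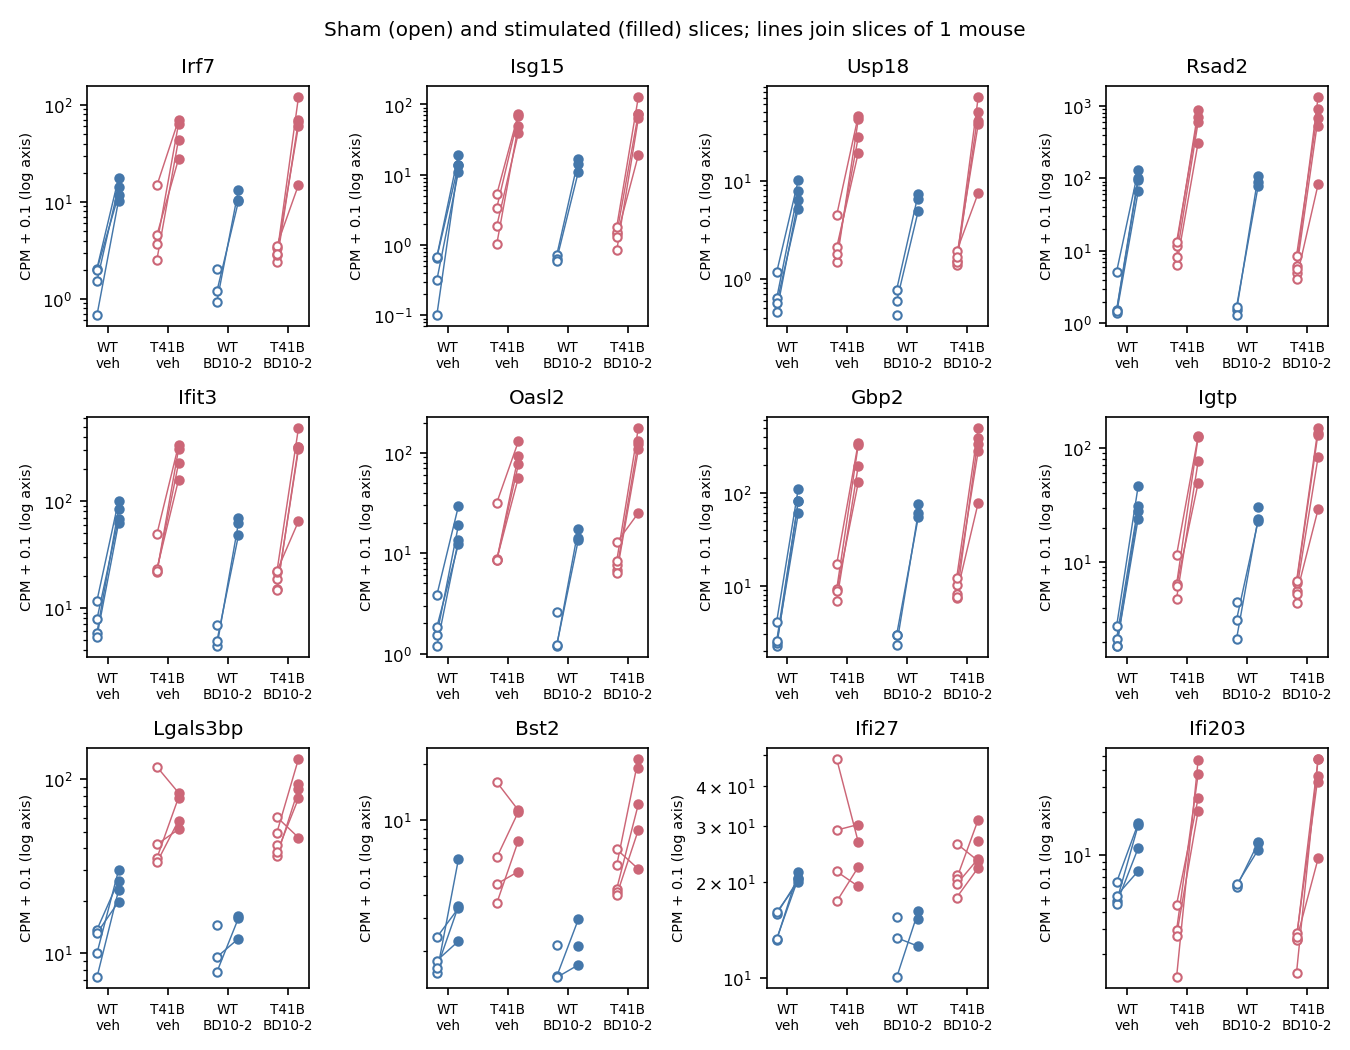
CPM on log axes, with a small offset so that 0 can be drawn, for 12 interferon-stimulated genes in every sample, by genotype and treatment; open circles are sham slices, filled circles stimulated slices, and lines join the slices of 1 mouse. Irf7, Isg15, Usp18, Rsad2, Ifit3, Oasl2, Gbp2 and Igtp climb in every mouse, Lgals3bp, Bst2 and Ifi27 do not, and Ifi203 starts lower in T41B than in WT and, Mouse1592 apart, ends higher.

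Ifi27 was called with stimulation in 0 and Lgals3bp in 2 of the 4 comparisons. Ifi27, which encodes a small membrane protein, was at 13.1, 13.2, 15.8 and 16 CPM in sham and 19.9, 20.3, 20.5 and 21.4 CPM in stimulated WT vehicle slices, and at 17.3, 21.5, 29 and 48.5 CPM and 19.3, 22.2, 26.6 and 30.2 CPM in T41B vehicle slices. The WT groups did not overlap and the T41B groups did, and neither comparison was called (0.50 and -0.24 on the log2 scale). Ifi27 was the single gene of the set without a call for stimulation. Lgals3bp, a secreted glycoprotein that binds galectins, was at 7.13, 9.84, 12.9 and 13.5 CPM in sham and 19.6, 22.8, 25.9 and 29.8 CPM in stimulated WT vehicle slices, and rose by 1.17 ± 0.33 (SE, adjusted p by edgeR = 0.019) on the log2 scale. In T41B vehicle slices it was at 33.1, 35.1, 42.1 and 118 CPM and 51.4, 57.7, 78.4 and 83.6 CPM, which overlapped, and was not called, at 0.24 ± 0.31 (SE, adjusted p by edgeR = 0.621). With BD10-2 it was called in T41B slices, at 0.95 ± 0.28 (SE, adjusted p by edgeR = 0.0129), and not in WT slices, at 0.50 ± 0.38 (SE, adjusted p by edgeR = 0.477). Whether the WT and T41B responses differ was covered by the genotype by stimulation term, which called neither gene.

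T41B slices had more of the set than WT slices. In stimulated slices 47 of the 49 genes were higher in T41B with vehicle, where 4.74% of all genes were higher and 1.05% lower, and 49 with BD10-2, where 8.2% were higher and 2.36% lower; 0 were lower in either. In sham slices 33 were higher and 0 lower with vehicle (background 5% and 1.24%), and 18 were higher (background 4.29%) and 1 lower (background 1.14%) with BD10-2. The median log2 fold changes were 1.74 in sham and 1.70 in stimulated vehicle slices, and 1.29 in sham and 2.12 in stimulated BD10-2 slices, beside medians of all genes from -0.03 to 0.01. All T41B samples lay above all WT samples for 37 genes in sham and 47 in stimulated vehicle slices, and for 42 and 34 genes with BD10-2, where the background was 6.25%, 6.78%, 10.5% and 9.32%. Without the 2 samples that stood apart, such separation was seen for 37 and 47 genes with vehicle and for 42 and 49 with BD10-2 (6.87%, 6.78%, 10.5% and 13.3% of all genes).

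Single mice and batches moved these counts. Without the 2 samples that stood apart, 31 genes differed in sham and 48 in stimulated vehicle slices, and 37 and 49 with BD10-2, where 3.45%, 6.77%, 6.3% and 13.1% of all genes differed. Without Mouse1551 the sham vehicle count was 15 in place of 33 (2.86% of all genes), and without Mouse1509 or Mouse1513, both WT, it was 20 and 21 (3.26% and 4.09%). Without Mouse1565, Mouse1571 or Mouse1590, the 3 WT mice, the sham BD10-2 count of 19 genes in either direction (background 5.44%) fell to 4, 5 and 7 (2.91%, 3.01% and 2.43% of all genes), and without Mouse1592 it was 29 (4.79%). With batch as a term in the fit, 8 genes were higher in sham and 23 in stimulated vehicle slices, against 17 and 49 with BD10-2, where 1.7%, 3.08%, 3.44% and 6.9% of all genes were higher. Batch E held only WT and batch G only T41B vehicle mice, and batch H only T41B BD10-2 mice. With the batch term the genotype differences rest mainly on the other batches, and so on fewer mice. In 4 batches that held sham slices of both genotypes the T41B score was higher by 0.50, 0.88, 0.86 and 0.71, and in 3 with stimulated slices by 1.28, 1.41 and 2.10. Each of these differences rests on 1 or 2 mice of each genotype.

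15 genes, beside 1.99% of all genes, were higher in T41B in all 4 genotype comparisons: Irf1, Ifih1, Zbp1, Oas1a, Oasl2, Mx2, Ifit1, Ifit3, Ifitm3, Gbp2, Gbp5, Irgm1, Parp14, Lgals3bp and Ifi204. Without the 2 samples that stood apart, 25 genes were (2.01% of all genes), 14 of the 15 among them; Mx2 was the one lost. All but Lgals3bp were also among the genes that rose with stimulation in all 4 comparisons. Irf1 was higher by 0.87 ± 0.17 (SE, adjusted p by edgeR = 0.00156) in sham and 0.94 ± 0.16 (SE, adjusted p by edgeR = 0.000355) in stimulated vehicle slices, and Oasl2 by 2.85 and 2.27. Ifi204 was at 0.289, 0.432, 0.474 and 1.13 CPM in sham WT and 2.98, 3.13, 3.99 and 7.7 CPM in sham T41B vehicle slices, and at 4.55, 5.28, 5.56 and 8.43 CPM and 29.9, 42.3, 46.4 and 67.3 CPM after stimulation. The genotypes did not overlap in either procedure, and the log2 fold changes were 2.94 ± 0.62 (SE, adjusted p by edgeR = 0.00291) and 2.95 ± 0.42 (SE, adjusted p by edgeR = 2.58e-05).

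Lgals3bp gave the smallest edgeR adjusted p of the set in both sham comparisons, with log2 fold changes of 2.39 ± 0.34 (SE, adjusted p by edgeR = 1.99e-05) with vehicle and 2.12 ± 0.36 (SE, adjusted p by edgeR = 0.000278) with BD10-2. With BD10-2 it was at 7.67, 9.37 and 14.3 CPM in sham WT and 35.9, 37.8, 42, 49.3 and 60.5 CPM in sham T41B slices, without overlap. Bst2 was higher in sham T41B slices under both treatments, by 2.14 ± 0.44 (SE, adjusted p by edgeR = 0.00247) and 1.66 ± 0.46 (SE, adjusted p by edgeR = 0.0301), and Ifi27 was called in sham vehicle slices, where its values are given above. In sham T41B vehicle slices Mouse1551 was at 15.9 CPM for Bst2 (others 3.5 to 6.22) and 118 CPM for Lgals3bp (others 33.1 to 42.1). Over 17 settings the sham vehicle log2 fold change was 1.46 to 2.36 for Bst2, called in 16, and 1.76 to 2.58 for Lgals3bp, called in 17. Lgals3bp, Bst2 and Ifi27, called with stimulation in 2, 1 and 0 of the 4 comparisons, were thus called between genotypes in at least 1 sham comparison. Oas3 was at 0.372, 1.06, 1.31 and 2.47 CPM in sham T41B vehicle slices and was called higher there, but its WT group held 3 counts in all, so no fold is given.

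A further 14 genes were higher in T41B in neither sham comparison: Stat2, Usp18, Ddx58, Dhx58, Eif2ak2, Oas2, Mx1, Ifit2, Isg20, Cmpk2, Dtx3l, Xaf1, Ifi44 and Ifi203. All 14 were higher in T41B in both stimulated comparisons, a pattern of calls that 1.72% of all genes had, although the test of the difference between sham and stimulated slices called 0 of them. Without the 2 samples that stood apart, 8 genes had this pattern of calls (2.14% of all genes), all of them among the 14. They were Cmpk2, Dhx58, Eif2ak2, Ifi203, Mx1, Oas2, Stat2 and Xaf1, and Ifit2 was not among them. Stat2 differed by 0.44 ± 0.22 (SE, adjusted p by edgeR = 0.257) in sham and by 1.18 ± 0.21 (SE, adjusted p by edgeR = 0.000491) in stimulated vehicle slices. Ifit2 was at 6.29, 6.34, 6.77 and 8.24 CPM in sham WT and 11.5, 12.9, 13.5 and 15.1 CPM in sham T41B vehicle slices, and at 26.9, 35.3, 40.2 and 42 CPM and 106, 175, 184 and 240.0 CPM after stimulation. The genotypes did not overlap in either, and the log2 fold changes were 0.94 ± 0.38 (SE, adjusted p by edgeR = 0.148) and 2.29 ± 0.35 (SE, adjusted p by edgeR = 6.73e-05). Cmpk2 differed by 0.62 ± 0.36 (SE, adjusted p by edgeR = 0.32) in sham and 2.01 ± 0.34 (SE, adjusted p by edgeR = 0.000235) in stimulated vehicle slices.

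**Figure D4:**
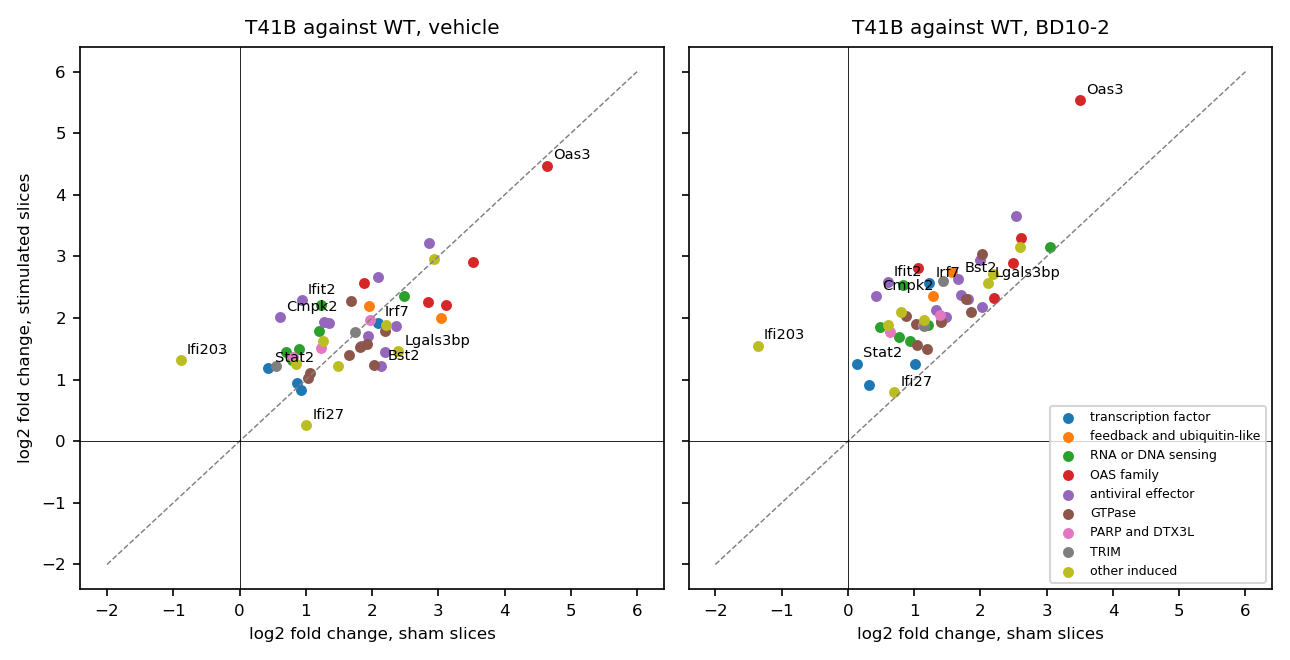
Log2 fold change of T41B against WT for the 49 genes in sham slices (horizontal axis) and stimulated slices (vertical axis), with vehicle (left) and BD10-2 (right); colours mark roles and the dashed line marks equal values. Ifi203 lies left of 0 in both panels (-0.89 and -1.36), Stat2, Ifit2 and Cmpk2 lie above the line, and Lgals3bp, Bst2 and Ifi27 lie below it with vehicle.

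Ifi203 was the one gene with opposite genotype differences. It encodes a PYHIN protein of the Ifi200 cluster. In sham vehicle slices it was at 4.46, 4.62, 5.08 and 6.34 CPM in WT and 1.28, 2.62, 2.86 and 4.38 CPM in T41B, and after stimulation at 7.62, 11.1, 16.1 and 16.6 CPM and 20.4, 25, 37 and 46.5 CPM. T41B values lay wholly below WT values in sham and wholly above them in stimulated slices; the sham difference of -0.89 ± 0.39 (SE, adjusted p by edgeR = 0.185) was not called and the stimulated one of 1.32 ± 0.33 (SE, adjusted p by edgeR = 0.0113) was. With BD10-2 it was at 5.88, 6.06 and 6.17 CPM in sham WT and 1.39, 2.44, 2.49, 2.56 and 2.73 CPM in sham T41B slices, and at 10.8, 12.1 and 12.2 CPM and 9.37, 32.6, 36, 47.3 and 47.4 CPM after stimulation. The sham groups did not overlap and the stimulated groups did, through Mouse1592; both differences were called, at -1.36 ± 0.38 (SE, adjusted p by edgeR = 0.0306) and 1.55 ± 0.35 (SE, adjusted p by edgeR = 0.00289). The sham call was kept under 12 of 17 settings and was lost without Mouse1565, Mouse1571 or Mouse1590, the WT mice.

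The test of whether stimulation acted differently by genotype called 0 of the 49 genes with either treatment, and 0 of the 19477 genes tested (background 0%). At an unadjusted p under 0.05 the counts were 6 genes with vehicle (4 with a higher and 2 with a lower term) and 11 with BD10-2 (all higher), where 8.64% and 4.35% of all genes passed; DESeq2 called 0 and 1. With BD10-2 all 49 estimates were positive, with a median of 0.76, and with vehicle the median was 0.01. Ifi203 had the largest terms, 2.21 ± 0.51 (SE, adjusted p by edgeR = 0.313) with vehicle and 2.91 ± 0.52 (SE, adjusted p by edgeR = 0.0829) with BD10-2; over 20 settings the latter had adjusted p values from 9.98e-05 to 0.476, 6 of them under 0.05. Without Mouse1592, edgeR called 9 genes with BD10-2 (0.407% of all genes), all with a larger response in T41B: Cmpk2, Dhx58, Dtx3l, Eif2ak2, Ifi203, Ifi35, Ifit2, Stat2 and Trim25. Without both samples that stood apart it called 11 with BD10-2 (0.521% of all genes), which added Irf9 and Xaf1, and 2 with vehicle (0.0361%), Cmpk2 and Ifi203. Omission of Mouse1592 was prompted by its score, so these counts are a description of the remaining samples.

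BD10-2 against vehicle gave 0 called genes of the set in all 4 comparisons, as it did among all 19477 genes (background 0%). DESeq2 also called 0 of the set. At an unadjusted p under 0.05 the counts were 0 in sham WT, 2 in stimulated WT, 8 in sham T41B and 0 in stimulated T41B slices, where 1.92%, 5.6%, 2.21% and 3.9% of all genes passed, and the 10 that passed were lower with BD10-2. The median log2 fold changes were -0.11, -0.23, -0.44 and 0.23 in the same order. In sham T41B slices 46 of 49 estimates were negative, and Irf7 went from 2.44, 3.61, 4.46 and 14.7 CPM with vehicle to 2.33, 2.72, 2.8, 3.27 and 3.44 CPM with BD10-2, values that overlapped; the high vehicle value was that of Mouse1551. The test of whether BD10-2 altered the response to stimulation called 0 genes in either genotype (background 0%), with 0 in WT and 10 in T41B at an unadjusted p under 0.05 (1.74% and 2.71% of all genes), and DESeq2 called 0 in either. Every batch held a single treatment, so treatment and batch cannot be told apart.

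The ligands were scarce. Ifnb1, which encodes interferon beta, had counts in 27 of the 32 samples. It was at 0, 0, 0 and 0.189 CPM in sham WT and 0.0625, 0.262, 0.691 and 1.06 CPM in sham T41B vehicle slices, and at 1.12, 1.71, 2.64 and 5.16 CPM and 2.97, 3.92, 4.1 and 5.86 CPM after stimulation. Stimulated and sham values did not overlap, and Ifnb1 was called higher with stimulation in all 4 comparisons. In T41B the log2 fold changes were 2.98 ± 0.54 (SE, adjusted p by edgeR = 0.000132) with vehicle and 4.00 ± 0.50 (SE, adjusted p by edgeR = 3.16e-07) with BD10-2; the sham WT groups held 3 counts each, so no fold is given for WT. In sham vehicle slices Ifnb1 was called higher in T41B than in WT (adjusted p by edgeR = 0.0468), again with no fold given; the sham BD10-2 difference was not called (adjusted p by edgeR = 0.0685). Between stimulated genotypes the Ifnb1 differences of 0.69 ± 0.45 (SE, adjusted p by edgeR = 0.47) and 1.19 ± 0.47 (SE, adjusted p by edgeR = 0.113) were not called.

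The 14 genes of the interferon alpha family held 160 counts together over the 32 samples, and 6 of them were at 0 in every sample. Ifng, which encodes interferon gamma, reached 0.11 CPM at most in WT samples and 2.2 CPM in T41B samples; it was called higher in stimulated T41B than stimulated WT slices with BD10-2, where the 3 WT samples were at 0. Its T41B values there were 0.0296, 0.353, 0.599, 0.697 and 2.2 CPM, and the highest, from Mouse1572, was well apart from the others. The values of 0.599, 0.697 and 2.2 CPM were the highest of Ifng in the 32 samples. Ifng thus passed the filter on low counts through the group that was called higher, so the call is no independent evidence. Il10, an anti-inflammatory cytokine that signals through STAT3, was called higher with stimulation in all 4 comparisons.

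Of 7 receptor and kinase genes, 2, 2, 3 and 3 rose with stimulation in WT vehicle, WT BD10-2, T41B vehicle and T41B BD10-2 slices and 0 fell. Among all genes 8.21%, 6.29%, 11.7% and 13.3% rose in the same order. In T41B 1 of the 7 was higher in sham and 2 in stimulated vehicle slices (5% and 4.74% of all genes). With BD10-2, 2 were higher in sham and 4 in stimulated slices (4.29% and 8.2%). Ifnar1, a chain of the type I interferon receptor, was at 32.9 to 38.9 CPM in the 8 group means and was called in none of these 8 comparisons. Ifnar2, the other chain, was at 9.93, 11.3, 11.5 and 12.3 CPM in sham and 14, 15.5, 15.6 and 18.7 CPM in stimulated WT vehicle slices, without overlap. It rose with stimulation by 0.50 to 0.67 on the log2 scale and was higher in T41B by 0.53 to 0.73, called in all 8 comparisons. Jak2, a kinase of the interferon gamma receptor, rose with stimulation in all 4 and was higher in stimulated T41B slices under both treatments, by 0.62 and 0.74 on the log2 scale. Jak1, a kinase that both receptors use, rose with stimulation in both T41B comparisons, by 0.32 and 0.42 on the same scale, and was higher in stimulated T41B BD10-2 slices. Ifngr1, the ligand-binding chain of the interferon gamma receptor, was higher in T41B under BD10-2 by log2 fold changes of 0.68 in sham and 0.65 in stimulated slices. Tyk2, a kinase of the type I receptor, and Ifngr2 were called in none of the 8.

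Irf3, the factor that starts Ifnb1 transcription, was not called in any of the 8 comparisons. Irf8, a factor of microglia and other myeloid cells, was higher in T41B in all 4 genotype comparisons, by 1.82 to 2.86. In stimulated T41B BD10-2 slices Irf8 was at 79.8 CPM in Mouse1572, against 19.9 to 33.1 CPM in the other mice.

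Inhibitors moved in both directions. Socs1 and Socs3, which block JAK signalling, rose with stimulation and were higher in T41B in every comparison; Socs1 rose by 1.75 to 2.56. Ptpn6, a phosphatase of blood-derived and microglial cells, was higher in T41B in all 4 genotype comparisons and fell with stimulation in 3 of 4, with a log2 fold change of -1.52 ± 0.22 (SE, adjusted p by edgeR = 7.78e-06) in T41B vehicle slices. Among sensors, Cgas, the cytosolic DNA sensor, and Myd88, the adaptor of Toll-like receptors, rose with stimulation in all 4, whereas Sting1, the adaptor downstream of Cgas, fell in 3 of 4, with -1.43 ± 0.29 (SE, adjusted p by edgeR = 0.00115) on the log2 scale in WT BD10-2 slices. In all, 35 of the 51 pathway genes were tested; 15, 11, 18 and 21 rose and 1, 2, 5 and 2 fell with stimulation in WT vehicle, WT BD10-2, T41B vehicle and T41B BD10-2 slices. Among all genes, 8.21%, 6.29%, 11.7% and 13.3% rose and 4.1%, 2.58%, 9.82% and 9.52% fell, so the counts of pathway genes that fell are too close to the background to be read as a result. In T41B 15 and 19 pathway genes were higher in sham and stimulated vehicle slices (5% and 4.74% of all genes), 11 and 23 in sham and stimulated BD10-2 slices (4.29% and 8.2%), and 0 were lower.

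**Figure D5:**
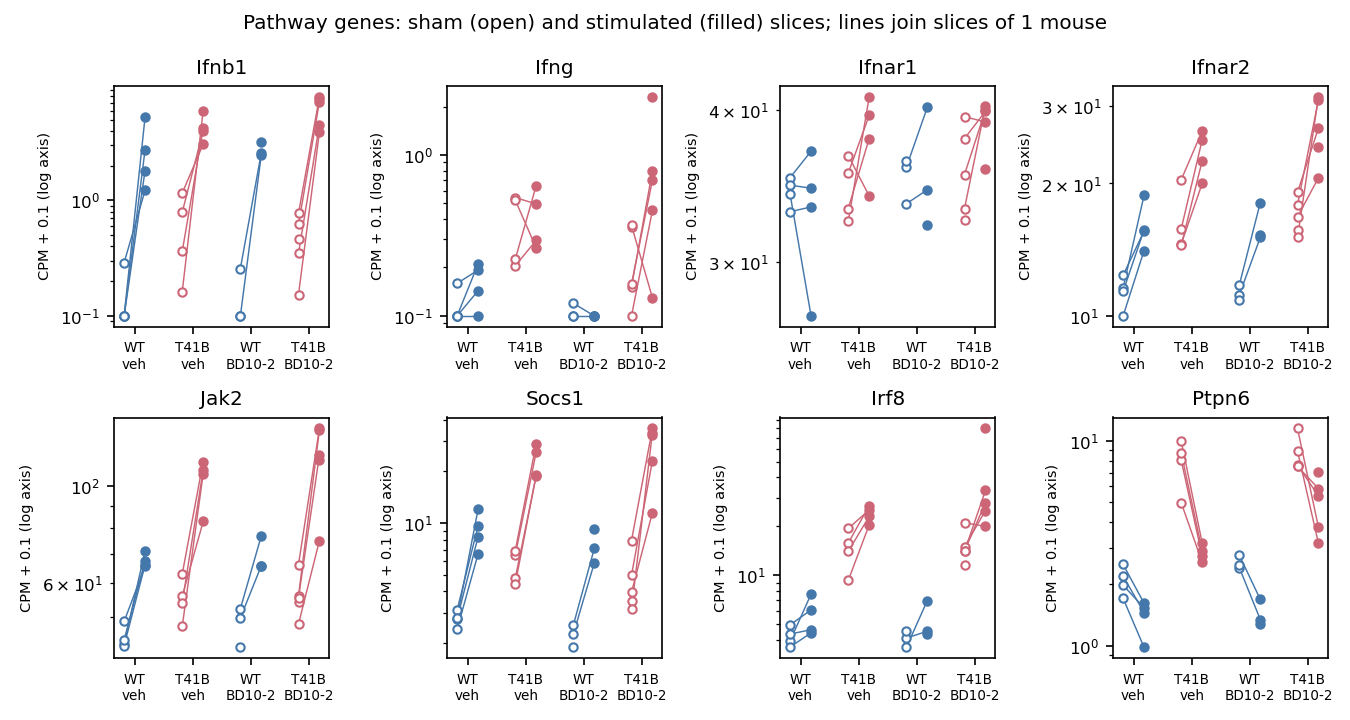
CPM on log axes, with a small offset so that 0 can be drawn, for 8 genes of the interferon pathway in every sample; open circles are sham slices, filled circles stimulated slices, and lines join the slices of 1 mouse. The group means of Ifnb1, Ifnar2, Jak2 and Socs1 are higher in stimulated slices, those of Ifnar1 lie between 32.9 and 38.9 CPM, and those of Ptpn6 are lower in stimulated slices and higher in T41B.

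Most pan-microglial and some homeostatic microglial markers were called higher in T41B, and 5 to 7 of the 10 and 5 or 6 of the 7 were called lower with stimulation. Among all genes, 4.1%, 2.58%, 9.82% and 9.52% fell with stimulation in WT vehicle, WT BD10-2, T41B vehicle and T41B BD10-2 slices. The share of all genes higher in T41B was 5% and 4.74% in sham and stimulated vehicle slices, and 4.29% and 8.2% with BD10-2. The summed level of 10 pan-microglial markers was 293 to 383 CPM in sham WT and 661 to 1280 CPM in sham T41B vehicle slices, and 143 to 233 CPM and 398 to 601 CPM after stimulation. With BD10-2 it was 314 to 372 CPM and 833 to 1170 CPM in sham slices, and 172 to 209 CPM and 572 to 857 CPM after stimulation. All 10 were higher in T41B in both sham comparisons, 8 in stimulated vehicle and 10 in stimulated BD10-2 slices, and 0 rose with stimulation. The sum of 7 homeostatic microglial markers lay at 73.9 to 108 CPM in sham and 34.3 to 49.6 CPM in stimulated WT vehicle slices. In T41B 5 of these 7 were higher in sham and 2 in stimulated vehicle slices (median log2 fold change 0.12), and 4 in sham and 5 in stimulated BD10-2 slices. Of 9 markers of plaque-associated microglia, 8 were higher in T41B in each of the 4 genotype comparisons. With stimulation 1 of the 9 rose in each comparison, Cd68 in both WT and Axl in both T41B comparisons, and 0 fell. Among all genes 8.21%, 6.29%, 11.7% and 13.3% rose, in the order given above. A count of 1 of 9 is too close to this background to be read as a result. The part of microglia in the result was not tested.

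Markers of blood leukocytes were close to absent. The sum of 6 T and NK cell markers was low and without overlap higher in T41B (0.876 to 4.13 CPM) than in WT samples (0.289 to 0.741 CPM); that of 6 neutrophil and monocyte markers was at most 1.2 CPM. Ly6g, the defining neutrophil marker, was at 0 in 31 of 32 samples. 9 choroid plexus markers summed to 138 to 221 CPM in most sham groups but reached 850 CPM in sham T41B and 1950 CPM in stimulated WT vehicle slices. 7 markers of hippocampal neurons, the cells that define the labelled tissue, summed to 4530 to 6870 CPM.

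Markers of other cells resident in the tissue moved as well. Of 6 astrocyte markers, 3, 0, 4 and 3 rose and 0 fell with stimulation in WT vehicle, WT BD10-2, T41B vehicle and T41B BD10-2 slices. In the same order, 8.21%, 6.29%, 11.7% and 13.3% of all genes rose and 4.1%, 2.58%, 9.82% and 9.52% fell. Aqp4, a water channel of astrocyte endfeet, and Gja1, a gap junction protein, were in each of the 3 lists with a call. In T41B 2 astrocyte markers were higher in sham slices under both treatments and in stimulated vehicle slices, Aqp4 and Gfap each time, and 5 in stimulated BD10-2 slices. The share of all genes higher in T41B was 5% and 4.74% in sham and stimulated vehicle slices, and 4.29% and 8.2% with BD10-2. In stimulated vehicle slices 1.05% of all genes were lower in T41B. Of 6 endothelial markers, Cdh5, a cell junction protein, rose with stimulation in all 4 comparisons and Pecam1 in both T41B ones, whereas Slco1a4, a transporter of the blood-brain barrier, fell in all 4. Between genotypes 0 endothelial markers were higher, and Slco1a4 was lower in stimulated T41B vehicle slices. All 9 choroid plexus markers rose with stimulation in WT vehicle slices, with a median log2 fold change of 3.41, and 0 were called with stimulation in the other 3 comparisons. This rise was carried by 2 of the 4 stimulated slices: the sum of the 9 was 1950 CPM in Mouse1509 and 1610 CPM in Mouse1513, both of batch E, and 193 CPM in Mouse1522 and 230 CPM in Mouse1524, against 140 to 170 CPM in the sham slices of these mice. The module scores of the same 4 stimulated slices were 4.26, 4.01, 4.32 and 3.75, and without Mouse1509 or Mouse1513 the count of the set that rose was 40 and 42 (4.79% and 5.73% of all genes, against 8.21% with all mice). Ttr, a choroid plexus product, was called higher in sham T41B vehicle slices, where 2 of the 4 carried the difference: it was at 91.6 CPM in Mouse1551, which also stood apart in the score, and 472 CPM in Mouse1553, both of batch G, and at 0.0525 CPM in Mouse1579 and 2.19 CPM in Mouse1510, against 0 to 0.865 CPM in WT. Further, 3 of the 9 were lower in stimulated T41B than stimulated WT vehicle slices. The part of these cells in the result was not tested.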

How the data were processed

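RNA was measured in hippocampal slices of 18 mice, in 36 libraries made from 200 ng of total RNA each with a stranded, ribosomal RNA-depleted kit, per the labels' protocols. The values are expected counts per gene as deposited by the authors, of which 5.7% had decimals. The submitters' processing notes name cutadapt 1.8.1, STAR 2.7.6a, RSEM 1.3.1, featureCounts 1.6, SAMtools 1.11 and the builds GRCm38.p6 and mm10; the strand setting of the counting is not given in the sources used here.

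Expected counts were rounded, and 4 pairs of libraries that shared a mouse and a procedure were summed, which gave 32 samples. Groups came from the labels. Genes were kept by filterByExpr with a minimum count of 10 (19477 genes), scaled by TMM (factors 0.91 to 1.063) and tested with edgeR 4.0.16 in R 4.3.3, by the quasi-likelihood F test with 1 coefficient per group and Benjamini-Hochberg adjustment over all genes kept, at a threshold of 0.05. The script was tested on simulated data with 200 changed genes. The module score was the mean of log2(CPM + 1) and had no test. The 49 genes, the pathway list and the cell type markers were chosen with earlier results of these data known. The text names every member that was listed by role for description, further members by size of change, and pathway genes from the fixed list, 1 of which is not reported here.

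Library totals of 11597555 to 28125842 counts set the precision. Slices of 1 mouse share an animal, so replicate numbers pair samples: deviations of the 14 same-mouse pairs correlated at 0.205 on average (0.022 to 0.411), against -0.055 over 52 pairs of different mice. Each batch in the labels held 1 treatment. Alternatives were DESeq2 1.42.0, its size factors, no filter on low counts, only the groups compared, either library of a same-label pair, each mouse left out, the replicate block, batch as a covariate, and pseudocounts of 0.5 and 5; leaving out the 2 samples that stood apart was added after seeing the data. Tables and figures were made with Python 3.11.15, numpy 2.4.6, pandas 2.3.3 and matplotlib 3.10.9.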

Additional observations from a re-analysis of the deposited data

Results flagged for a closer look

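In groups of 4 or 5 samples, 17 of 138 groups examined held a sample whose gap to its nearest neighbour was large against the range of the group; chance flags about 1 in 20 groups. The sham T41B vehicle slice of Mouse1551 had a module score of 3.71 (nearest 2.81). Its CPM was also the highest of the group, and apart, for Irf7 (14.7, nearest 4.46), Stat2 (36.2, nearest 25.7), Ifih1 (26.5, nearest 16.0), Oasl2 (31.8, nearest 8.61), Ifit1 (24.8, nearest 10.2), Ifit3 (48.9, nearest 22.9) and Lgals3bp (118, nearest 42.1). The stimulated T41B BD10-2 slice of Mouse1592 had a module score of 4.29 (nearest 5.99).

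The sham WT vehicle slice of Mouse1522 was high for Oas3 (0.189 CPM, the others at 0), Ifit1 (6.04, nearest 1.96), Rsad2 (5.03, nearest 1.42) and Gbp2 (4.02, nearest 2.45). Among stimulated WT vehicle slices, Mouse1524 was low for Ifit1 (42.3 CPM, nearest 68.9). Among sham T41B BD10-2 slices, Mouse1564 was high for Irf1 (59.2 CPM, nearest 41.2) and low for Ifi203 (1.39, nearest 2.44), and Mouse1570 was low for Ifi204 (1.48, nearest 2.89).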

How the results depend on the processing

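The counts of genes that rose with stimulation kept within 1.5 times of the reported ones under every alternative run, with ranges of 40 to 47 in WT vehicle, 34 to 45 in WT BD10-2, 45 to 47 in T41B vehicle and 47 to 48 in T41B BD10-2 slices (4.01% to 11.6%, 2.77% to 7.33%, 5.65% to 14.7% and 6.55% to 15.1% of all genes). With the replicate block, which pairs the slices of a mouse, they were 45, 39, 45 and 48 (11.6%, 4.69%, 14.7% and 13.5% of all genes), and the block changed no call count of the set by over 1.5 times. Stimulated genotype counts ranged from 23 (batch covariate) to 48 with vehicle and from 47 to 49 with BD10-2 (2.26% to 5.49% and 3.67% to 9.68% of all genes higher). The sham vehicle count of 33 became 8 with the batch covariate (1.81% of all genes), a fit that rests on fewer mice. It ranged from 15 to 35 when single mice were left out (2.86% to 10.6% of all genes). Over all alternatives its range was 8 to 39 (1.81% to 10.6%). The sham BD10-2 count of 19 became 34 with DESeq2, 41 with only the groups compared, 37 without the 2 samples that stood apart (8.28%, 9.57% and 6.3% of all genes, against 5.44%), and 4 to 29 when single mice were left out (2.43% to 5.6%). The genotype by stimulation count of 0 became 2 with vehicle without those 2 samples; with BD10-2 it became 1 with DESeq2, with the batch covariate, with no low-count filter and with the second library of same-label pairs (0.113%, 0.0308%, 0.00537% and 0.0307% of all genes), 11 without those 2 samples, and 0 to 9 when single mice were left out. The cause of these changes was not tested. Treatment counts stayed at 0 under the alternatives run.

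With a pseudocount of 5, the score differences for stimulation of 2.17, 2.06, 2.68 and 3.10 were 1.45, 1.35, 2.15 and 2.46, and those of T41B against WT in sham slices of 1.09 (vehicle) and 0.85 (BD10-2) were 0.64 and 0.48. With a pseudocount of 0.5, stimulation in WT BD10-2 slices gave 2.28 and T41B against WT in sham BD10-2 slices 0.99. No called value changed sign. Of the values under alternatives of genes called in the reported fit, 4566 kept their side of the threshold and 250 lost it. Of the 63 stimulation and genotype values of the set not called there, 38 were called under at least 1 alternative, and 4 changed sign under at least 1 without being called with the opposite sign; for Ifi27 the log2 ranges were -0.37 to 0.12 (stimulation, T41B vehicle), -0.06 to 0.31 (stimulation, WT BD10-2) and -0.17 to 0.36 (genotype, stimulated vehicle). Genes with few counts in sham WT slices, such as Oas3, Mx1 and Ifnb1, are limited by depth.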
